A study of Mesocricetus auratus and Mus musculus with 214 samples.

Results

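Whole adult testes of Piwil1-/- golden hamsters were compared with adult wild-type (WT) testes by RNA-seq. The comparison rests on 4 libraries, 2 from Piwil1-/- and 2 from WT males, chosen by genotype, tissue and age among the 16 whole-testis libraries of the deposited testis table and the 214 samples of the series. The Piwil1-/- strain carries a small deletion together with an insertion inside an exon of Piwil1, so the gene can still be transcribed, and it is a mutation of every cell of the animal. The WT males carried no engineered allele, neither group received a treatment, and the labels give the age of both as adult with no day. Adult Piwil2-/- and Piwil3-/- testes (2 libraries each) and sorted spermatocytes of Piwil1-/- and WT males were used beside them. The rest of the 16 libraries came from adult Piwil4-/- testes and from 3-day-old WT, Piwil2-/- and Piwil4-/- testes. They entered the statistical fit, where all groups share a common estimate of spread. All 36133 genes of the table were read on 2 scales, first as deposited and then after the libraries had been set to equal totals.

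PIWI proteins are Argonaute-family proteins that bind piRNAs, small RNAs of the germ line. PIWIL1, known as MIWI in the mouse, appears in spermatocytes at the pachytene stage of meiosis and carries the abundant pachytene piRNAs, whose precursors are transcribed under the factor A-MYB. Male germ cells pass from spermatogonia through leptotene, zygotene, pachytene and diplotene spermatocytes to round spermatids, which then build an acrosome and a flagellum and pack their DNA with protamines. The comparison asks which transcripts an adult testis keeps and which it lacks when PIWIL1 is missing.

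The deposited values are fragments per kilobase of exon per 1000 reads of ERCC spike-in RNA. They are per length, so levels can be compared between genes, and they scale with the ratio of sample RNA to spike-in RNA. How much testis material met a given amount of spike-in is not given in the sources used here. In bulk RNA fewer cells of a type and less RNA per cell cannot be told apart. Whole read pairs behind the values were recovered, and the 4 libraries held between 2302296 and 3330046 of them in genes. A single read pair over 1 kb was worth 0.0545 and 0.0964 in the Piwil1-/- libraries and 0.105 and 0.125 in the WT libraries, so low values were measured most finely in the mutant. Replicate libraries correlated across genes at 0.974 for Piwil1-/- and 0.970 for WT on the log2(value + 1) scale. That description is across genes, which are not independent.

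Piwil1 itself (gene ID 101840945) had values of 14.3 and 21.6 in Piwil1-/- testes, against 37.3 and 35.6 in WT testes. The groups did not overlap and the transcript was present in all 4 libraries, at 49.2% of WT. The change missed the threshold in the fit over all 16 testis libraries (log2 difference -1.01 ± 0.55 (SE), adjusted p = 0.175; limma, Benjamini-Hochberg). It passed when only the 4 libraries were fitted (adjusted p = 0.0399) and without the adult Piwil4-/- pair, whose 2 libraries differed from each other more than any other adult pair (r = 0.944; adjusted p = 0.00087). Piwil2, the partner expressed from earlier spermatocytes on, had 20.4 and 25.6 in Piwil1-/- testes, against 11.5 and 13.2 in WT testes (adjusted p = 0.152). Piwil3 was at 0.199 and 0.31 in Piwil1-/- testes, against 0.203 and 0.188 in WT testes, and Piwil4 at 0.137 and 0.151 in Piwil1-/- testes, against 0.329 and 0.471 in WT testes, both too low to be tested.

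Total expression was lower in the mutant testes. Summed values were 90718 and 125900 in Piwil1-/- testes, against 151097 and 153413 in WT testes, a mean of 71.1% of WT, and the 2 groups did not overlap. A two-sided exact permutation test gave p = 0.333, the smallest that 2 against 2 allows. Without Piwil1-/- library 1 the mean was 82.7% of WT, and without library 2 it was 59.6%.

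Where that difference lay was read with classes of genes taken from other libraries. Each gene was assigned to the stage of the sorted WT series at which its mean FPKM was at least 10 and at least 4 times the mean of the other stages. The genes of the round spermatid class summed to 10010 and 19300 in Piwil1-/- testes, against 42940 and 48360 in WT testes. They made up 11.0% and 15.3% of all expression in the mutant and 28.4% and 31.5% in WT. Pachytene class genes summed to 8812 and 14130 in Piwil1-/- testes, against 10030 and 8905 in WT testes, so these groups overlapped. Their share of the total was 9.71% and 11.2% in Piwil1-/- and 6.64% and 5.80% in WT, without overlap.

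**Figure D1:**
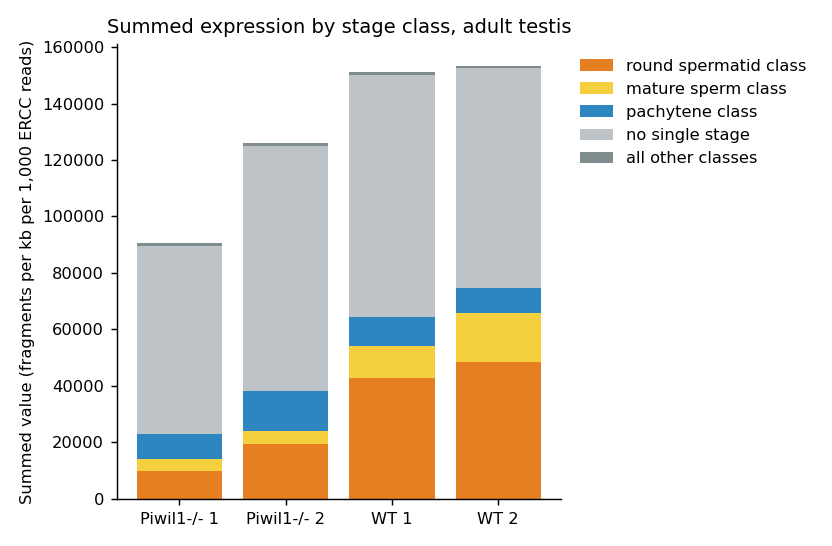
Summed expression in fragments per kb per 1,000 ERCC reads (vertical axis) in the 2 Piwil1-/- and the 2 WT adult testis libraries, stacked by the stage class of the genes. The round spermatid class falls to 10010 and 19300 in Piwil1-/- testes, against 42940 and 48360 in WT testes, and the pachytene class is at 8812 and 14130 in Piwil1-/- testes, against 10030 and 8905 in WT testes.

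On the deposited scale 8289 genes passed the filter on low values (over 2 in at least 40% of the 4 libraries), and 600 of them were higher and 2376 lower in Piwil1-/- testes at an adjusted p under 0.05, that is 7.24% and 28.7%. At 4-fold and an adjusted p under 0.01 there were 32 higher (0.386%) and 1138 lower genes (13.7%). A fit of the 4 libraries alone called 276 higher and 2014 lower, and limma-voom on the recovered read pairs called 238 and 2163, so the higher calls depended on the fit more than the lower ones. Without Piwil1-/- library 2 the higher count was 317, and without WT library 2 it was 255. At equal totals, where only composition is left, 3083 of 8400 genes were higher (36.7%) and 1770 lower (21.1%). The median difference over all genes tested was -0.13 on the deposited scale and 0.35 at equal totals on the log2(value + 1) scale, and the equal-totals changes below are to be read against that shift.

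The largest falls were in genes of the late, haploid phase. Prm2 (gene ID 101828406) encodes protamine 2, which replaces histones in the sperm head. Its values were 0 and 0 in Piwil1-/- testes, against 557.2 and 1215 in WT testes, at least 1256-fold lower when 3 read pairs per library are taken as the floor of a 0 (log2 difference -9.69 ± 0.30 (SE), adjusted p = 2.99e-12; limma). Tnp1, transition protein 1, which precedes the protamines on spermatid DNA, was at 0 and 0 in Piwil1-/- testes, against 223.7 and 385.3 in WT testes, at least 606.6-fold lower. Hmgb4, a high-mobility-group protein of spermatids, had 0 and 0 read pairs in the Piwil1-/- libraries against 2677 and 3469 in the WT libraries. Neither mutant library held a read pair of these genes.

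The other leading names were of the same kind. Oaz3, a spermatid antizyme that regulates polyamine synthesis, had 0 and 0 in Piwil1-/- testes, against 348.1 and 708.8 in WT testes and was at least 2567-fold lower. Gsg1, a germ cell protein that binds the testis poly(A) polymerase, was at 0 and 0 in Piwil1-/- testes, against 247.2 and 481.7 in WT testes. Tppp2, a tubulin-binding protein of the sperm tail, had 0 and 1 read pairs in the Piwil1-/- libraries against 2808 and 5600 in the WT libraries. Gapdhs, the sperm form of the glycolytic enzyme GAPDH, kept a trace, with 6 and 3 read pairs in the Piwil1-/- libraries against 1946 and 2928 in the WT libraries. Irgc, a GTPase of sperm, fell to 0.0612% of WT, and Znrf4 and Spata20 had values of 0 in both mutant libraries. CUNH20orf144 and CUNH12orf54, named only by their chromosome positions in other species, were at 0.0693 and 0 against 192.0 and 335.0 and at 0 and 0 against 110.8 and 194.7, Piwil1-/- against WT. Each of these 12 genes kept its call under every alternative fit that was run.

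**Figure D2:**
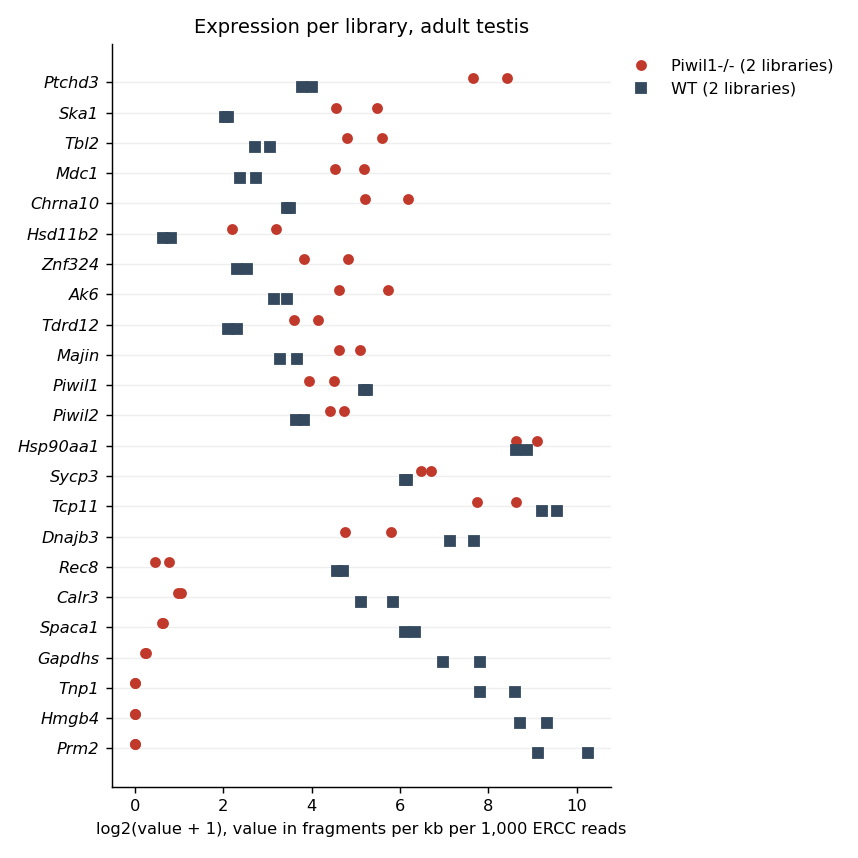
Expression per library of 23 named genes as log2(value + 1), with the value in fragments per kb per 1,000 ERCC reads; circles are the 2 Piwil1-/- libraries and squares the 2 WT libraries. Ptchd3 to Majin lie to the right in Piwil1-/-, Hsp90aa1 overlaps between the groups, and Prm2, Hmgb4 and Tnp1 are at 0 in Piwil1-/-.

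A total of 595 genes were at 0 in both Piwil1-/- libraries and over 2 in both WT libraries, while 3 genes showed the opposite pattern. Those 3 were the tRNA gene Trnak-uuu and the small nucleolar RNA genes LOC121134412 and LOC121137334, each resting on 2 to 14 read pairs in a Piwil1-/- library and singled out after their values were seen. Together the 595 accounted for 122034 and 155687 read pairs of the WT libraries, or 7.28% and 11.0% of WT expression. By stage class 484 were round spermatid genes, 90 mature sperm genes and 0 pachytene genes. By annotation 260 were long noncoding RNAs (lncRNAs). Of the 688 lncRNAs tested, 67 were higher (9.74%) and 417 lower (60.6%). Of 7532 protein-coding genes tested, 519 were higher (6.89%) and 1952 lower (25.9%). The filter on low values kept 688 of 4956 detected lncRNAs and 7532 of 17768 detected protein-coding genes. The 260 lncRNAs, and 332 protein-coding genes of the 595, passed it only through WT, so the shares lower depend on the filter. Over all detected genes the median log2 difference was -0.12 for lncRNAs and -0.02 for protein-coding genes.

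Genes of sperm chromatin, the acrosome and the tail were then read as lists. Of 9 tested genes of protamines and sperm chromatin, 6 were lower (against 28.7% of all genes) and 0 higher. Prm3 had 0 and 0 in Piwil1-/- testes, against 92.6 and 141.3 in WT testes, and Tssk6, a kinase needed for the exchange of histones, fell to 0.18% of WT. Cdyl, a chromodomain protein of spermatids, was at 0.793 and 0.795 in Piwil1-/- testes, against 8.0 and 12.3 in WT testes. Psme4, the PA200 proteasome activator linked to histone removal, moved less, at 46.7% of WT (log2 difference -0.83 ± 0.20 (SE), adjusted p = 0.00433; limma).

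Of 38 tested genes of the round spermatid and acrosome, 31 were lower (81.6%, against 28.7% of all genes) and 0 higher, with a median of -4.14 over those tested. Spaca7 and Tmem190, proteins of the acrosomal region, had 0 and 0 in Piwil1-/- testes, against 84.5 and 100.3 in WT testes for Spaca7 and 0.0845 and 0 in Piwil1-/- testes, against 93 and 122.3 in WT testes for Tmem190. Spaca1, an acrosomal membrane protein, was at 0.741% of WT. Tssk2, a kinase of spermatids, had 2 and 0 read pairs in the Piwil1-/- libraries against 820 and 1105 in the WT libraries. Klhl10, a ubiquitin ligase adaptor of spermatids, was at 0.0202% of WT. Actl7a, an actin-like protein of the acrosome, kept a single read pair over both mutant libraries.

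The flagellum list had 38 of 61 tested members lower (62.3%, against 28.7% of all genes) and 0 higher, with a median of -1.02, so a part of it was retained. Akap4, the main scaffold of the fibrous sheath, was at 0 and 0 in Piwil1-/- testes, against 91.5 and 200.3 in WT testes, at least 1909-fold lower. Ropn1, which binds it, fell to 0.0366% of WT, and Sun5, which joins head and tail, to 0.0461%. Spag6, a protein of the axoneme's central pair, was less reduced, at 0.775 and 1.98 in Piwil1-/- testes, against 15.6 and 16.8 in WT testes. The sperm calcium channel CatSper and its partners had 9 of 16 tested members lower (56.2%, against 28.7% of all genes) and 0 higher. Catsper4 was at 0 and 0 in Piwil1-/- testes, against 7.2 and 6.97 in WT testes and Lrrc52 at 0 and 0 in Piwil1-/- testes, against 6.0 and 6.79 in WT testes, both absent from the mutant libraries. Efcab9, the calcium sensor of the channel, fell to 0.222% of WT, Catsper3 to 1.04%, Tmem262 to 2.89% and Tmem249 to 0. At equal totals the flagellum count was 24 lower (39.3%) and 1 higher, and the CatSper count 8 lower (50%) and 0 higher, where 21.1% of all genes were lower.

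Germ cell forms of metabolic enzymes were lowered unevenly. Of 14 tested glycolysis genes 7 were lower (50%, against 28.7% of all genes) and 0 higher, while at equal totals 4 were lower (28.6%, against 21.1%) and 1 higher. Slc16a7, a lactate and pyruvate transporter, had 0.00492 and 0 in Piwil1-/- testes, against 10.7 and 12.4 in WT testes, and Hk1, hexokinase, 3.48 and 8.02 in Piwil1-/- testes, against 48 and 67.8 in WT testes. Tpi1, triosephosphate isomerase, was at 40.6% of WT and Eno4 at 44.1%, a call that Eno4 lost at equal totals (adjusted p = 0.129). Pgk2, the testis phosphoglycerate kinase, which is transcribed from meiosis on, was at 25.8 and 58 in Piwil1-/- testes, against 70.3 and 77 in WT testes with an adjusted p of 0.0499, a call that was lost in 13 of 16 alternatives. The antioxidant and thioredoxin list was near the shares over all genes. It had 4 of 14 tested members lower (28.6%, against 28.7% of all genes) and 1 higher (7.14%, against 7.24%). At equal totals 3 were lower (21.4%, against 21.1%) and 4 higher (28.6%, against 36.7%). Gpx4, the selenoenzyme that forms the sperm mitochondrial capsule, fell to 2.57% of WT, with 8.87 and 7.43 in Piwil1-/- testes, against 229.1 and 405.4 in WT testes. Txndc2, a sperm thioredoxin, was at 0 and 0.0152 in Piwil1-/- testes, against 2.68 and 3.6 in WT testes, and Nme8 at 16.6% of WT. Prdx4 was the remaining lower member (log2 difference -0.83, adjusted p = 0.00637, and 0.204 at equal totals; limma). Prdx2, a peroxiredoxin abundant in blood and somatic cells, went the other way, with 24.7 and 23.9 in Piwil1-/- testes, against 12.3 and 13.5 in WT testes (adjusted p = 0.00195, and 0.0519 when only the 4 libraries were fitted).

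The list of regulators of the haploid programme had 9 of 16 tested genes lower (56.2%, against 28.7% of all genes) and 0 higher. The 9 include Actl7a, the actin-like protein that the acrosome list above also holds. At equal totals 8 of 16 were lower (50%, against 21.1% of all genes) and 2 higher (12.5%, against 36.7%). Fhl5, the ACT coactivator of CREM in the mouse, was at 0 and 0 in Piwil1-/- testes, against 95.6 and 141.2 in WT testes, at least 612.4-fold lower. Spz1 was at 0 and 0 in Piwil1-/- testes, against 79.3 and 135.2 in WT testes, and Foxj1, the master factor of motile cilia, at 0.268 and 0.219 in Piwil1-/- testes, against 4.93 and 4.7 in WT testes. Sox5 fell to 3.1% of WT and Zfp37 to 17.6%.

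Round spermatid genes differed among themselves by how far WT pachytene cells already expressed them. The class of 2216 genes had 1806 tested, 5 higher and 1415 lower (78.3%, against 28.7% of all genes). Of the genes whose WT pachytene FPKM was under 1% of the round spermatid FPKM, 382 of 384 tested were lower, and the median Piwil1-/- level was 0% of WT. Between 1% and 5% it was 609 of 617, with a median of 0.272% of WT. Between 5% and 25% it was 276 of 390, with a median of 36.2%. At 25% or more it was 148 of 415, with 4 higher and a median of 64.4% of WT. At equal totals the 4 bins had 345 of 347, 568 of 586, 207 of 378 and 64 of 412 genes lower. The bins were set on the sorted WT series, which shares no library with the testes compared, and the counts cover genes that passed the filter, most of them through WT. The median levels instead cover all detected genes of each bin, which were 605, 751, 435 and 425, also those below the filter.

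**Figure D3:**
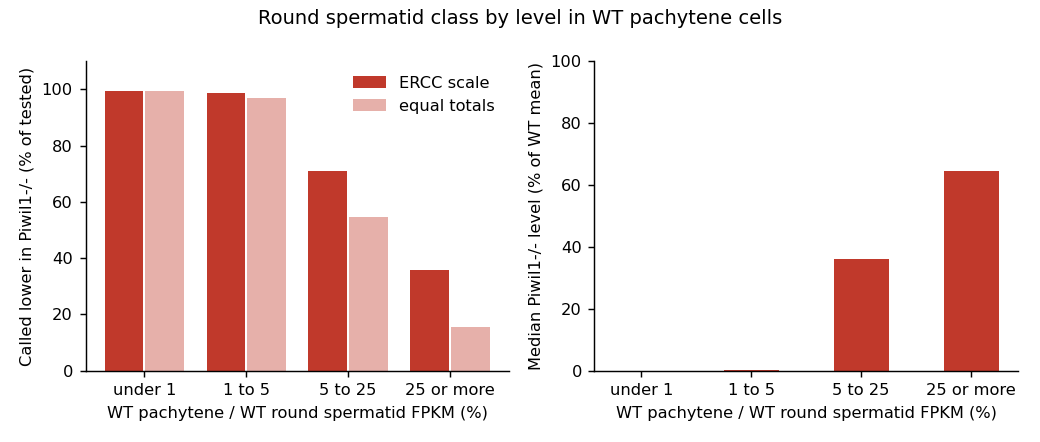
Round spermatid class genes binned by the ratio of WT pachytene to WT round spermatid FPKM in percent (horizontal axes). The left panel gives the share of tested genes called lower in Piwil1-/- testes on both scales. On the ERCC scale it is 99.5% in the first bin and 35.7% in the last. The right panel gives the median level over all detected genes of a bin as percent of the WT mean. It is 0% in the first bin and 64.4% in the last.

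Genes with an early start illustrate the upper bins. Tcp11, a sperm motility protein with high WT pachytene expression, had 212.3 and 392.7 in Piwil1-/- testes, against 593.1 and 743.1 in WT testes, and Ropn1l, a tail protein, 192.6 and 352.7 in Piwil1-/- testes, against 577.3 and 618.4 in WT testes. Neither passed in the fit over 16 libraries (adjusted p = 0.256 for Tcp11 and 0.204 for Ropn1l), although their groups did not overlap. In contrast Rec8, which encodes a meiotic cohesin, was at 0.71 and 0.372 in Piwil1-/- testes, against 22.9 and 25.3 in WT testes, or 2.25% of WT. Its WT FPKM in the sorted series was 1.52 in pachytene cells and 181 in round spermatids, so the transcript measured here belonged to the round spermatid class. Calr3, an endoplasmic reticulum chaperone of sperm, fell to 2.23% of WT. Aurkc, a kinase of meiotic divisions, fell to 14%. Dhx58, an RNA-sensing helicase on the interferon list, was at 0.132 and 0.117 in Piwil1-/- testes, against 15.9 and 12.9 in WT testes and was likewise a round spermatid class gene in the sorted WT series.

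Pachytene class genes were seldom lower. Of 440 genes 395 were tested, with a median of 0.24 over the 440. Of those tested 79 were higher (20%, against 7.24% of all genes) and 7 lower (1.77%, against 28.7%). At equal totals 200 of 406 were higher (49.3%, against 36.7% of all genes) and 0 lower (against 21.1%), with a median of 0.68. The share higher at equal totals was 46.6% in genes of no single stage, 65.6% in the zygotene class and 77.1% in the spermatogonial class. A raised share was thus not particular to the pachytene class. The higher count was 57 with the 4 libraries alone, 32 with limma-voom on read pairs, 125 without Piwil1-/- library 1, 47 without library 2 and 51 without WT library 2. The 2 mutant libraries differed from each other in this class, library 2 exceeding library 1 by a median of 0.61. Hsp90aa1, a chaperone with the highest pachytene FPKM of the class, was at 391.5 and 542.7 in Piwil1-/- testes, against 470.3 and 392.4 in WT testes and the groups overlapped. Calm2, calmodulin, was at 386.2 and 519.7 in Piwil1-/- testes, against 293.7 and 266.1 in WT testes (adjusted p = 0.0353, lost in 6 of 16 alternatives). CUNH5orf58 also overlapped between groups, with 250.9 and 254.5 against 255.9 and 226.3, Piwil1-/- against WT. A separate list of pachytene and diplotene spermatocyte genes had 0 of 28 tested members higher and 4 lower (14.3%, against 28.7% of all genes). Its median over those tested was -0.26. The lower members were Calr3, Spag6, Aurkc and Pgk2. At equal totals 3 members were higher (10.7%, against 36.7% of all genes) and 3 lower (10.7%, against 21.1%).

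**Figure D4:**
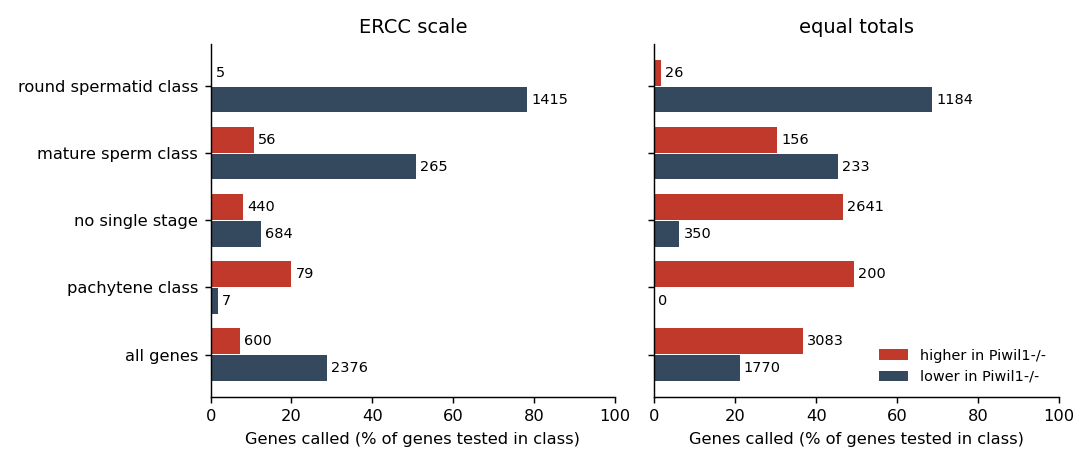
Share of tested genes called higher (red) or lower (dark) in Piwil1-/- testes in each stage class, on the ERCC scale (left) and at equal totals (right), with the number of genes beside each bar. The round spermatid class has 1415 lower genes on the ERCC scale and 1184 at equal totals, and the pachytene class has 79 higher genes on the ERCC scale and 200 at equal totals.

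The remaining classes were small or mixed. In the mature sperm class 56 of 523 tested genes were higher (10.7%, against 7.24% of all genes) and 265 lower (50.7%, against 28.7%). The class also held stromal genes such as Dcn and Sparc, so it is not a list of sperm genes alone. Of 29 zygotene genes 9 were higher (31%) and 1 lower, and of 26 spermatogonial genes 5 were higher (19.2%) and 1 lower. Sycp1, of the synaptonemal complex that pairs the chromosomes, was at 19.5 and 19.9 in Piwil1-/- testes, against 17.2 and 16.5 in WT testes (adjusted p = 0.623). Sohlh1, a factor of differentiating spermatogonia, was at 3.61 and 3.27 in Piwil1-/- testes, against 3.86 and 3.25 in WT testes (adjusted p = 0.945). Stra8, the trigger of meiotic entry, had 47 and 17 read pairs in the Piwil1-/- libraries against 23 and 6 in the WT libraries, too few to test. Ddx4, the germ cell helicase, overlapped between groups, with 61.2 and 87 in Piwil1-/- testes, against 96.7 and 87.8 in WT testes.

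Meiotic recombination was the germ cell list with the highest share of higher genes, 8 of 21 tested (38.1%) against 7.24% of all genes, with 1 lower, and 12 of 22 higher at equal totals, against 36.7% of all genes, with 0 lower. With only the 4 libraries in the fit the count was 4. Mdc1, the DNA damage adaptor that spreads the silencing mark over the sex chromosomes in meiosis, had 22.2 and 35.6 in Piwil1-/- testes, against 5.69 and 4.23 in WT testes (log2 difference 2.30 ± 0.25 (SE), adjusted p = 2.06e-06; limma). Majin, which ties telomeres to the nuclear envelope, was at 23.8 and 33.1 in Piwil1-/- testes, against 11.8 and 8.74 in WT testes (adjusted p = 0.00104). Msh4, a crossover protein, was at 2.68 and 2.93 in Piwil1-/- testes, against 1.67 and 1.24 in WT testes (adjusted p = 0.000454, and 0.0979 with limma-voom). Calls for Prr19, Mnd1 and Dmc1, with 1.05, 0.79 and 0.46 on the log2(value + 1) scale, were lost in 7 of 16, 7 of 15 and 7 of 15 alternatives. Rnf212, a crossover factor, was the 1 lower gene, with 7.75 and 6.69 in Piwil1-/- testes, against 11.1 and 13.8 in WT testes (adjusted p = 0.0372, and 0.437 at equal totals), a call lost in 10 of 16 alternatives. Of the synaptonemal complex list, 1 of 10 was higher (10%, against 7.24% of all genes), Hormad2 (4.67 and 4.96 against 3.39 and 2.41, Piwil1-/- against WT), and 1 was lower (10%, against 28.7%), Syce3 (11.1 and 5.64 against 20.1 and 16.2). Hormad2 lost the call in 5 of 15 alternatives (adjusted p = 0.138 with only the 4 libraries), and Syce3 at equal totals (adjusted p = 0.109) and with limma-voom (adjusted p = 0.0534). Sycp3 itself was at 87.6 and 102.7 in Piwil1-/- testes, against 70.2 and 68.1 in WT testes with an adjusted p of 0.455.

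Factors that make piRNAs or work with PIWI proteins were split, with 3 of 25 tested genes higher (12%, against 7.24% of all genes) and 3 lower (12%, against 28.7%), and 8 higher (32%, against 36.7%) and 1 lower (4%, against 21.1%) at equal totals. Tdrd12, a Tudor-domain helicase of piRNA amplification, had 11.2 and 16.8 in Piwil1-/- testes, against 3.34 and 3.96 in WT testes (log2 difference 1.66 ± 0.26 (SE), adjusted p = 8.23e-05; limma). Henmt1, the enzyme that methylates the 3′ ends of piRNAs, was at 3.28 and 5.91 in Piwil1-/- testes, against 1.31 and 1.13 in WT testes (adjusted p = 3.15e-05). Pld6, the mitochondrial nuclease Zucchini, was at 14.9 and 23.1 in Piwil1-/- testes, against 9.35 and 9.85 in WT testes (adjusted p = 0.0388, lost in 9 of 16 alternatives). Tdrd1, a Tudor scaffold of the germinal granules, had 73.6 and 134.8 in Piwil1-/- testes, against 31.8 and 32.9 in WT testes with a gap between groups but an adjusted p of 0.0605, and it passed at equal totals (adjusted p = 0.0235) and with only the 4 libraries (adjusted p = 0.00609). The lower members were Gtsf1 (62.3 and 97.4 against 222.2 and 268.0, Piwil1-/- against WT), Tdrd7 (5.17 and 13.6 against 20.3 and 17.4) and Dnajb3, a co-chaperone (26.1 and 54.5 against 139.0 and 202.3), all 3 in the round spermatid class. At equal totals Gtsf1 and Tdrd7 did not pass (adjusted p = 0.0864 and 0.164), and over all alternatives they lost the call in 7 and 9 of 16. Tdrkh and Mov10l1 did not pass (adjusted p = 0.183 and 0.311).

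The genes with the largest rises were of another kind. Ptchd3 (gene ID 101829786), a Patched-domain membrane protein known from sperm, had 199.6 and 343.3 in Piwil1-/- testes, against 15.2 and 12.7 in WT testes, or 19.4-fold the WT mean (log2 difference 4.14 ± 0.69 (SE), adjusted p = 0.000197; limma). Ska1, of the spindle and kinetochore, was at 22.4 and 43.3 in Piwil1-/- testes, against 3.12 and 3.28 in WT testes. Tbl2, a WD-repeat protein of the endoplasmic reticulum, was at 27 and 47.2 in Piwil1-/- testes, against 7.31 and 5.57 in WT testes. Chrna10, a subunit of the nicotinic acetylcholine receptor, was at 36 and 71.8 in Piwil1-/- testes, against 10.5 and 9.9 in WT testes. In each of these the lower mutant library exceeded the higher WT library by more than 3-fold.

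Further rises were smaller. Hsd11b2, which inactivates glucocorticoids, was at 3.59 and 8.18 in Piwil1-/- testes, against 0.769 and 0.55 in WT testes, Znf324, a zinc finger protein, at 13.2 and 27.3 in Piwil1-/- testes, against 4.77 and 3.95 in WT testes, and Ak6, an adenylate kinase, at 23.6 and 51.9 in Piwil1-/- testes, against 9.85 and 7.9 in WT testes. Adjusted p for these was 2.3e-05, 8.35e-05 and 0.000247. The 3 tRNA genes among the leading 12 rested on few read pairs, Trnak-uuu on 5 and 4 in the Piwil1-/- libraries against 0 and 0 in the WT libraries. Of the 32 genes higher at 4-fold and an adjusted p under 0.01, 23 carried only a locus identifier and 3 were tRNA genes.

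Sorted spermatocytes of the same genotypes, in libraries that are not those of the testes, gave a separate reading of these rises. Values there are per 10000 ERCC reads and the 2 numbers of each stage are means of up to 2 libraries. Over all genes 96 of 7992 were higher in Piwil1-/- than in WT pachytene cells (1.20%) and 553 of 8691 in diplotene cells (6.36%). Of the 600 genes higher in testes, 426 were tested in diplotene cells and 170 were higher there (39.9%), with 0 lower, and 371 had a positive difference. Of the 32 leading genes, 31 were tested and 21 were higher in diplotene cells (67.7%) and 14 in pachytene cells (45.2%). Of testis genes that were not called, 90 of 4750 were higher in diplotene cells (1.89%). The 170 shared genes were 28.3% of the testis list and 30.7% of the diplotene list.

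Ptchd3 was at 1098 and 1210 against 46.1 and 98 in Piwil1-/- against WT pachytene cells and at 1871 and 2151 against 30.5 and 32.5 in diplotene cells (log2 difference 5.95, adjusted p = 0.000404; limma). Ska1 was at 191.3 and 220.2 against 15.9 and 18 in diplotene cells and at 75.1 and 81.5 against 17.6 and 18.2 in pachytene cells, with adjusted p of 7.58e-06 and 0.0028. For Tbl2 the diplotene values were 168.4 and 215.8 against 20.8 and 27.3, for Mdc1 163.2 and 185.2 against 19.2 and 17.7, for Majin 170.5 and 182.7 against 31.1 and 29.1 and for Hsd11b2 44.1 and 54.2 against 3.09 and 3.85, Piwil1-/- against WT. Adjusted p in diplotene cells was 4.58e-06 for Tbl2, 3.53e-06 for Mdc1, 2.11e-05 for Majin and 1.66e-07 for Hsd11b2. Znf324, Ak6, Henmt1 and Msh4 passed in diplotene cells and not in pachytene cells (diplotene adjusted p = 0.00392, 0.0193, 0.00358 and 0.000851), a difference between stages that was not tested. Chrna10 and Tdrd12 did not pass in either stage (diplotene adjusted p = 0.0623 and 0.0878). The sorted WT cells were not free of spermatid RNA, since Prm2 was at 35.6 and 0.701 in WT pachytene cells and at 0 in both Piwil1-/- numbers.

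**Figure D5:**
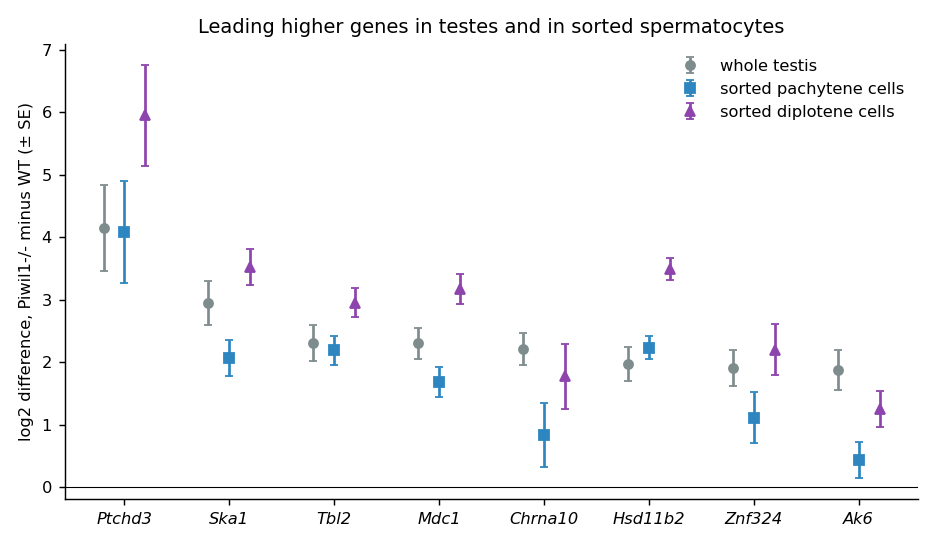
Log2 difference on the log2(value + 1) scale, Piwil1-/- minus WT, with its standard error from limma (vertical axis) for 8 of the named genes that were higher in whole testes, in whole testes (circles), sorted pachytene cells (squares) and sorted diplotene cells (triangles). The genes shown are the 12 leading higher genes with a gene name, without the tRNA genes and Aard among them. Ptchd3 reaches 5.95 in diplotene cells, and all 24 points lie above 0.

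Genes lower in testes were seldom called in the sorted cells. Of 2376 lower genes 1122 were tested in sorted diplotene cells, where 17 were lower (1.52%, against 1.07% of all genes tested there). Another 21 were higher (1.87%), and the median was -0.03. Among the 6298 genes tested in both testes and diplotene cells, 0.524% were lower and 4.46% higher in diplotene cells. Of 93 genes lower in diplotene cells 33 were tested in testes, where 17 were lower (51.5%, against 28.7% of all genes) and 0 higher. Within the round spermatid class, the bins of 5% to 25% and of 25% or more had medians of 0.04 and 0.01 in diplotene cells, over 371 and 422 genes. Piwil1 in the sorted cells was at 44.9 and 49.2 against 304.7 and 255.1 in Piwil1-/- against WT pachytene cells and at 100.7 and 115.7 against 293.2 and 275.4 in diplotene cells.

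Several somatic cell markers were higher per spike-in. Of 15 tested Sertoli cell genes 6 were higher (40%, against 7.24% of all genes) and 0 lower, and all 15 differences were positive. With only the 4 libraries in the fit 1 of them passed. Their summed value was 452.7 and 466.0 in Piwil1-/- testes, against 300.7 and 233.0 in WT testes. Clu, clusterin, was at 239.4 and 238.7 in Piwil1-/- testes, against 146.1 and 114.0 in WT testes (adjusted p = 0.0112, and 0.139 without WT library 2). Dhh, the hedgehog ligand of Sertoli cells, was at 5.84 and 7.97 in Piwil1-/- testes, against 3.31 and 3.88 in WT testes, and Aard at 8.87 and 14.3 in Piwil1-/- testes, against 3.18 and 1.24 in WT testes (adjusted p = 0.00656 and 5.74e-05). Cldn11, of the blood-testis barrier, Inha, the inhibin alpha subunit, and Espn, of Sertoli actin bundles, had adjusted p of 0.0255, 0.0225 and 0.0449, and lost the call in 5, 4 and 11 of 16 alternatives. At equal totals 14 of 16 Sertoli genes were higher (87.5%, against 36.7% of all genes).

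Leydig cell genes had 3 of 10 higher (30%, against 7.24% of all genes) and 0 lower, with a sum of 297.6 and 224.4 in Piwil1-/- testes, against 185.9 and 152.9 in WT testes. Ptgds, prostaglandin D synthase, was at 57.3 and 60.8 in Piwil1-/- testes, against 32.7 and 25.3 in WT testes (adjusted p = 0.00185), and 6 of 10 members were higher at equal totals (60%, against 36.7% of all genes). Of 10 peritubular and stromal genes 2 were higher (20%, against 7.24% of all genes), Dcn with 8.67 and 5.39 against 3.72 and 2.69 and Sparc with 90.2 and 77.5 against 59.7 and 56.5, Piwil1-/- against WT, and both lost the call with only the 4 libraries (adjusted p = 0.0505 and 0.26). Endothelial genes summed to 4.26 and 2.61 in Piwil1-/- testes, against 5.77 and 2.33 in WT testes. Macrophage and lymphocyte genes summed to 9.32 and 9.53 in Piwil1-/- testes, against 9.48 and 8.00 in WT testes. On the deposited scale 0 members of both lists reached the filter, so a change there was not detectable at this depth. At equal totals 2 macrophage and lymphocyte genes were tested and 1 was higher, Mrc1, a macrophage receptor (1.92 and 2.36 against 1.44 and 1.36 on the deposited scale, Piwil1-/- against WT; log2 difference 0.71, adjusted p = 0.0154 at equal totals). The part of these cells in the rises above was not tested.

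Ribosomal protein genes were higher about as often as all genes on both scales. Of 55 cytosolic ribosomal protein genes 3 were higher (5.45%, against 7.24% of all genes) and 1 lower on the deposited scale, and 21 higher (38.2%, against 36.7%) and 0 lower at equal totals, with medians of -0.09 and 0.41. The members called on the deposited scale were Rpl7, Rpl10 and Rps4x, which were higher (0.60, 0.74 and 0.82 on the log2(value + 1) scale, adjusted p = 0.0345, 0.0326 and 0.0176; limma), and Rpl28, which was lower (-0.86, adjusted p = 0.0236). With only the 4 libraries in the fit 0 of these 4 passed (adjusted p = 0.191 for Rpl7, 0.0987 for Rpl10, 0.0695 for Rps4x and 0.0593 for Rpl28), and each lost the call in 5 or 6 of 16 alternatives. Of 11 mitochondrially encoded genes 1 was higher (9.09%, against 7.24% of all genes), and 9 at equal totals (81.8%, against 36.7%). The 1 called on the deposited scale was ND4L, with 215.9 and 209.7 in Piwil1-/- testes, against 162.4 and 127.9 in WT testes (lost in 10 of 16 alternatives). The list of apoptosis and p53 genes had 1 of 6 tested lower (16.7%, against 28.7% of all genes), Bak1 with 1.61 and 1.2 in Piwil1-/- testes, against 4.02 and 3.5 in WT testes (adjusted p = 0.00115, and 0.0541 at equal totals), and 0 higher. Of 2 tested interferon and RNA-sensing genes 0 were higher.

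The Piwil1-/- testes were also set against testes of the other PIWI mutants, in comparisons that share the Piwil1-/- libraries with the one above. Against Piwil2-/- testes, 3907 of 7050 genes were higher in Piwil1-/- (55.4%) and 1549 lower (22%) on the deposited scale. At equal totals the balance turned, with 2710 of 7353 higher (36.9%) and 3050 lower (41.5%), and the counts that follow are on the deposited scale. Pachytene class genes were higher in 371 of 382 cases, with a median of 2.68. The 2 upper bins of the round spermatid class were higher in 222 of 240 and 363 of 370 genes. Between 1% and 5%, only 50 of 751 genes were tested, of which 18 were higher and 29 lower. Of these 751, 315 were at 0 in both Piwil1-/- libraries and could pass the filter only through Piwil2-/-. The lower count of this bin is therefore not a result. Under 1% only 8 of 605 genes were tested, all lower. Of these 605, 438 were at 0 in both Piwil1-/- libraries and could pass the filter only through Piwil2-/-, so the direction in this bin is not a result. Hsp90aa1 was at 391.5 and 542.7 in Piwil1-/- testes, against 57.4 and 43.9 in Piwil2-/- testes. Tcp11 was at 212.3 and 392.7 in Piwil1-/- and 9.88 and 10.5 in Piwil2-/- testes, and Dnajb3 at 26.1 and 54.5 against 1.23 and 1.04.

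Prm2 and Hmgb4 had values of 0 in the libraries of both of these mutants. Sertoli genes were lower in Piwil1-/- in 17 of 18 cases, with Clu at 239.4 and 238.7 in Piwil1-/- and 639.9 and 703.4 in Piwil2-/- testes. Ptchd3 was at 199.6 and 343.3 in Piwil1-/- testes, against 7.64 and 5.52 in Piwil2-/- testes (log2 difference 5.13, adjusted p = 4.8e-06; limma).

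Against Piwil3-/- testes, 1609 of 8340 genes were higher in Piwil1-/- (19.3%) and 2655 lower (31.8%) on the deposited scale. At equal totals the balance turned here too, with 4392 of 8561 higher (51.3%) and 1963 lower (22.9%), and the counts that follow are again on the deposited scale. The round spermatid class had 1499 of 1883 genes lower and 8 higher, and the pachytene class 145 of 390 higher and 7 lower. Prm2 was at 0 and 0 in Piwil1-/- testes, against 1770 and 1573 in Piwil3-/- testes. Ptchd3 was at 199.6 and 343.3 in Piwil1-/- and 11.2 and 9.93 in Piwil3-/- testes, Ska1 at 22.4 and 43.3 against 1.8 and 2.29, and Tdrd12 at 11.2 and 16.8 against 2.89 and 2.67 (adjusted p = 7.97e-05, 9.82e-07 and 1.41e-05). The Piwil3-/- values of these genes were near those of WT, in libraries that entered the WT comparison only through the shared estimate of spread.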

How the data were processed

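Whole-testis libraries were made by a Smart-seq2 type protocol, which does not mark strand, and the study calls the libraries of a group biological replicates. Per the labels and the study's methods, the authors trimmed reads with Trim Galore 0.5.0, aligned them with STAR 2.9 and counted read pairs per gene with featureCounts 1.6.4 (mapping quality of at least 20, multimapping pairs allowed). The labels name mm10, while the methods align hamster reads to BCM_Maur_2.0. Gene copies that share reads, and overlapping or antisense genes, are therefore uncertain. The authors deposited testis and sorted cell values as a ratio to ERCC spike-in reads (per kb, per 1000 reads for testes and per 10000 for sorted cells), and the sorted WT stage series as FPKM. In these files 2 columns matched no sample of the series and were not used.

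From these, log2(value + 1) was tested with limma 3.58.1 (trend, R 4.3.3) over all 16 testis libraries, adult and 3-day, with Benjamini-Hochberg adjustment over all genes tested (a gene had to exceed 2 in 40% or more of the compared libraries). Calls were made at an adjusted p under 0.05. Read pairs behind the deposited values were recovered as whole numbers within 0.1 and used for depth, floors and limma-voom; intervals and floors cover counting error only. Library totals ran from 2302296 to 3330046 read pairs. Names were found in RefSeq for all 36133 gene IDs. Gene lists (24 lists, 661 names), stage classes and comparisons were chosen with earlier results of these data known. Named genes are the 12 largest passing changes with a gene name in each direction whose groups do not overlap, the 8 largest at equal totals, up to 6 passing members per list (or the 3 with the highest WT mean), the 4 highest genes of each stage class, the Piwi genes and genes the study names for testes. For stromal genes of the mature sperm class and for genes shown in figures the same rule holds. The fits were tested on simulated data. Alternatives were the pseudocount, filter, scaling, libraries in the fit, trend, threshold, each library left out and the replicate block. Promoter motifs were planned and not run because promoter sequences were not used here, and the oocyte table and small RNA libraries were not used. One gene of the lists is not reported here.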

Additional observations from a re-analysis of the deposited data

How the results depend on the processing

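Of the 118 named genes tested, 98 passed, and 65 of these kept the call under every alternative, 50 of 59 lower and 15 of 39 higher ones. No called difference changed sign. Among genes that did not pass, Sohlh1 (0.37) and Ddx4 (0.17) turned positive at equal totals, and Sohlh1, Hsp90aa1, CUNH5orf58 and LOC121144049 changed sign on leaving out 1 library (-0.18 to 0.06). The median over all genes also turned positive without Piwil1-/- library 1 (0.07). With 2 libraries a group, p-values rest on the spread shared over genes, and read pairs limit genes near 0. A filter over 5 gave 332 higher and 1506 lower genes, and 1902 higher and 1093 lower at equal totals, from fewer genes tested. No filter gave 4823 lower genes, and 3691 at equal totals, from more genes tested. At 2-fold 172 genes were higher. Equal totals gave 3083 higher genes, against Piwil2-/- 3050 lower ones and against Piwil3-/- 4392 higher ones, by the scale's construction. Median-of-ratios scaling in place of equal totals gave 806 higher genes. The 4 libraries alone gave 276 higher genes, and limma-voom on recovered read pairs 238, with 32 pachytene class genes higher (limma-voom was added after seeing the data). A simulation had the fit over 16 libraries call 95 of 8027 unchanged genes, the fit over 4 libraries 19 and limma-voom 1, with 199, 197 and 194 of 200 planted changes found. It gave all genes the same spread, taken from the WT pair, and no shift between whole libraries. Changes were planted at 2-fold or more in genes with a WT mean over 5. Its counts therefore do not give the error rates of these data. Sorted A and B libraries kept separate gave 198 higher and 24 lower genes in pachytene cells and 162 lower ones in diplotene cells. Leaving out 1 library at a time gave 255 to 767 higher and 1962 to 2909 lower genes, 1634 to 2930 higher and 1625 to 1713 lower at equal totals, and 47 to 125 pachytene class genes higher. It lost the call of 19 named genes without Piwil1-/- library 1, 19 without library 2, 16 without WT library 1 and 26 without WT library 2. The cause of these shifts was not tested where no construction is named.

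The labels number both groups 1 and 2, but nothing states that a number pairs the animals. With the replicate block 545 genes were higher and 2307 lower, and 3135 and 1762 at equal totals. Same-numbered deviations correlated at -0.182 over genes, and with the pairing crossed (added after seeing the data) the counts were 638 higher and 2448 lower.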
